A study of Mus musculus with 8 samples.

Results

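The cytosolic ribosomal protein genes were taken as the protein-coding rows whose symbol is Rps or Rpl followed by a number, with Rpsa and the Rplp stalk genes added and the Rps6k kinases left out. The rule found 83 genes among the 52636 gene rows, 32 of the small (40S) subunit and 51 of the large (60S) subunit. The counts came from bulk polyA RNA sequencing of LEPR+ bone marrow mesenchymal stem cells, perivascular stromal cells sorted from C57BL/6 mice. The mice received either LTβR-Ig, a soluble decoy for the ligands of the lymphotoxin β receptor, or HEL-Ig, an IgG1 against hen egg lysozyme that served as control. Both were given intravenously at 150 µg each week for 3 weeks. The sort took live LEPR+ cells and left out those with CD45, Ter119, CD31 or CD144, after magnetic depletion of blood cells. There were 4 libraries per group. The age of the mice is not given in the sources used here, and neither is the number of mice behind a library. The p-values are therefore for differences between libraries, whose spread may be technical.

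A ribosome is built from ribosomal RNA and a single copy of most ribosomal proteins, so the genes of both subunits are transcribed at coordinated levels in most cells. Many of their mRNAs start with a C followed by a run of pyrimidines, the 5′ terminal oligopyrimidine (TOP) tract, through which the mTORC1 pathway and the binding protein LARP1 control their translation. Ribosomal protein mRNAs are abundant in growing cells and are long-lived. Their RNA level is a measure of these messages, not of ribosome number or of translation.

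The start sites of some of these genes, shown because the TOP tract is the sequence feature that the family is best known for, were read from RefSeq promoters on GRCm38.p6. Each window holds the 10 bases before the annotated start and the first 20 bases from it, 5′ to 3′ on the gene's strand. The C-led pyrimidine tract at the start is in capitals. The windows shown were picked from the 13 of 75 annotated starts that have a C followed by at least 4 further pyrimidines. Rpl35a also has annotated starts without such a tract, which are not shown.
Rps6, chr4:86857348-86857377, minus strand: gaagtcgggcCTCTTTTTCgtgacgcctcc
Rps10, chr17:27635225-27635254, minus strand: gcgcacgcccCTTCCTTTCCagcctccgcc
Rps18, chr17:33955646-33955675, minus strand: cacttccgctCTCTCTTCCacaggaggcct
Rps27, chr3:90213629-90213658, minus strand: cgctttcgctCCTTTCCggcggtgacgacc
Rpl14, chr9:120571507-120571536, plus strand: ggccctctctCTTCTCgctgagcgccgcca
Rpl15, chr14:18270967-18270996, minus strand: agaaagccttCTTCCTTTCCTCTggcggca
Rpl35, chr2:39005112-39005141, minus strand: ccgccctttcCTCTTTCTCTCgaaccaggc
Rpl35a, chr16:33056472-33056501, plus strand: gcttgccttcCTCTTTCCgccatcttggcg
Rpl38, chr11:114668570-114668599, plus strand: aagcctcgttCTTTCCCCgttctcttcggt
Rplp2, chr7:141447641-141447670, plus strand: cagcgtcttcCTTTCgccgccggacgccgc

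RefSeq promoters matched 63 of the 83 genes, with 75 start sites. A C at the annotated start followed by at least 4 further pyrimidines was found at 13 of the 75 starts (17.33%), and at 823 of 32851 starts (2.51%) over all promoters of the same length. A C-led pyrimidine run of at least 8 bases beginning within 20 bases of the start was found at 33 starts (44.0%), against 14.53% of all starts. In the whole 300-base promoters, the letters CCGGAAG, which hold the core that ETS-family factors read, stood on either strand in 27 (36.0%), against 8.86% of all promoters. The letters AAGATGG, which hold the core of the YY1 motif, stood on either strand in 12 (16%), against 6.34% of all promoters. These are matches of letters in annotated windows, and an annotated start can lie some bases away from the start used in these cells. The RNA data do not measure binding or translation.

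Total counts lay between 52378101 and 61164510 in LTβR-Ig libraries and between 56466028 and 64403177 in control libraries. The 12 LEPR+ stroma markers each had at least 10 counts in every library, and their summed level was 35052 to 44500 CPM with LTβR-Ig and 31989 to 40209 CPM in controls, where CPM is the count scaled to library size after TMM normalization. Of these 12 markers 6 had a log2 fold change (LTβR-Ig over control) below 0 and 6 above, with a median of 0.0013. Kitl (stem cell factor) and Pdgfra were lower at an unadjusted edgeR p under 0.05, with log2 fold changes of -0.58 and -0.29. Their groups did not overlap. Over all genes tested, 2.93% were lower at that level, and 2.53% had groups not overlapping with LTβR-Ig lower. RNA of other marrow cells was present too. The 10 erythroid markers summed to 21652 to 42211 CPM with LTβR-Ig and 21348 to 55344 CPM in controls. The 10 neutrophil markers summed to 4577 to 9147 CPM with LTβR-Ig and 4049 to 9476 CPM in controls. Sums of the 7 Schwann cell markers were 434 to 751 CPM with LTβR-Ig and 239 to 430 CPM in controls and did not overlap, while the defining marker Sox10 had no counts in any library. The sums of the endothelial, megakaryocyte, macrophage, osteoblast, B cell and T cell lists overlapped between the groups. In some lists of other cells the single markers mostly differed in the same direction. All 8 endothelial and all 8 megakaryocyte markers had a log2 fold change above 0, with medians of 0.51 and 0.64 and none past an unadjusted edgeR p of 0.05. Of the 8 osteoblast markers 7 were above 0 and 2 were higher at that level, Alpl (0.95, groups not overlapping) and Sp7 (0.95), while the sum was mostly Ibsp (-0.066). All 10 neutrophil markers were below 0, and 2 were lower at that level, Mmp8 (-1.05) and Mmp9 (-0.90). Of the 4 Schwann cell markers tested, 2 were higher at that level, Ncam1 (1.23, groups not overlapping) and S100b (0.78). Over all genes tested, 3.39% were higher and 2.93% lower at that level, and 2.36% had groups not overlapping with LTβR-Ig higher. The single markers above were named after their values were seen, and none was called over all genes. Their part in the results below was not tested.

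Blocking the lymphotoxin β receptor was accompanied by no called change in any ribosomal protein gene. Of the 83 genes, 81 passed the filter on low counts, 32 of the small and 49 of the large subunit. None of the 81 had an adjusted p under 0.05 in edgeR's quasi-likelihood test, where 6 of all 16045 genes tested did (0.0374%), all lower with LTβR-Ig. None had an unadjusted edgeR p under 0.05, a level passed by 1014 of all genes (6.32%), 470 in the lower direction (2.93%) and 544 in the higher (3.39%). For no ribosomal protein gene did the 2 groups of libraries fail to overlap, against 2.53% of all genes separated with LTβR-Ig lower and 2.36% separated with it higher. The 2 genes outside the test were Rpl10l, a testis paralog of Rpl10 with no count in any library, and Rpl3l, a striated muscle paralog of Rpl3 with 47 counts in LTβR-Ig replicate 1 and 0 in the other 7 libraries. A count of 0 allows up to 3 counts in a library.

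Most fold changes nevertheless pointed the same way by a small amount. The log2 fold change (LTβR-Ig over control) was below 0 for 76 of the 81 tested genes, against 50.3% of all genes tested. Its median was -0.12 over the 81 genes and -0.0021 over all genes. The small subunit had 31 of 32 genes below 0 and a median of -0.13. The large subunit had 45 of 49 below 0 and a median of -0.11. The values ran from -0.31 for Rpl29 to 0.43 for Rpl41. These genes vary together between libraries of the same group, as the next values show, so the number below 0 does not count independent observations.

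**Figure D1:**
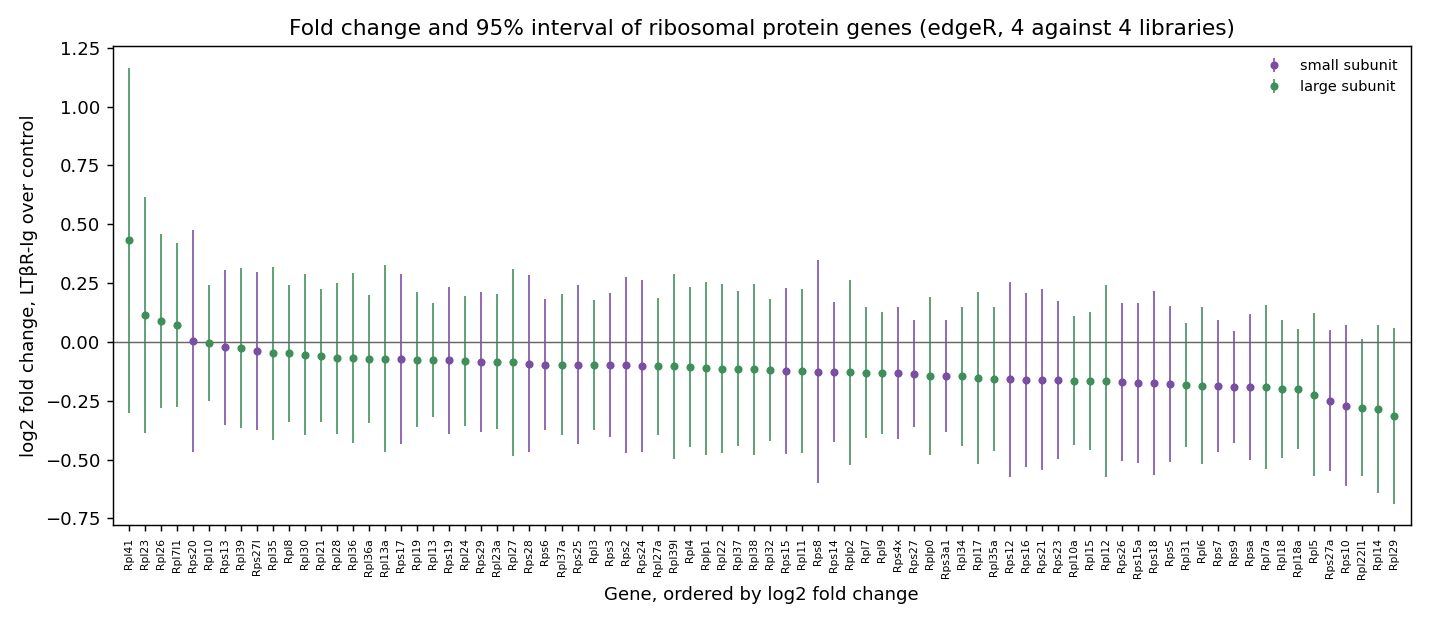
Log2 fold change (LTβR-Ig over control) with its 95% interval for the tested ribosomal protein genes reported here, ordered by value and coloured by subunit. Most points lie below 0, from -0.31 for Rpl29 to 0.43 for Rpl41, and none passed the edgeR test.

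The median deviation of the members from their own mean over all libraries showed which libraries carried this difference. On the log2 scale it was 0.12, 0.10, -0.097 and -0.35 in LTβR-Ig replicates 1 to 4, and 0.28, 0.095, -0.11 and -0.024 in control replicates 1 to 4. The groups overlapped, with LTβR-Ig replicate 4 lowest and control replicate 1 highest. LTβR-Ig replicate 4 held the lowest value of 73 of the 81 genes, and control replicate 1 the highest value of 65. Without LTβR-Ig replicate 4 the median log2 fold change was -0.028 and 53 genes lay below 0. Without control replicate 1 it was -0.034 and 59 genes lay below 0. The standard deviation of this median between libraries of a group was 0.20 on the log2 scale, larger than the difference between the groups.

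**Figure D2:**
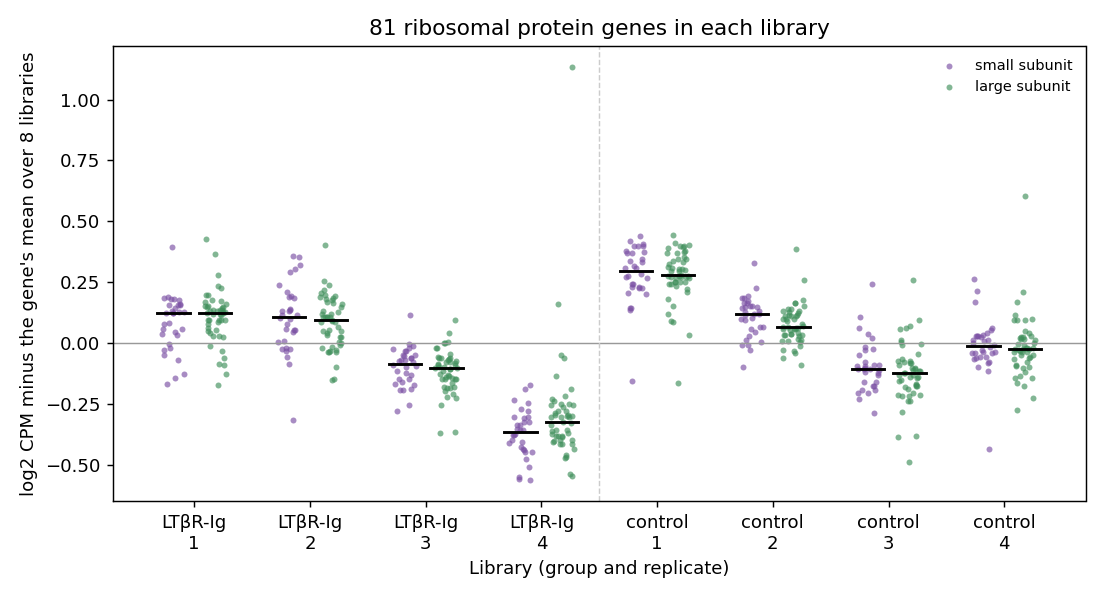
Log2 deviation of each ribosomal protein gene from its own mean over the 8 libraries, by library, LTβR-Ig left of control, with points coloured by subunit and bars at the median of each subunit. The whole distribution sits low in LTβR-Ig replicate 4 (median -0.35) and high in control replicate 1 (median 0.28), and the other 6 libraries lie between.

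As a share of all counts the 83 genes took 4.23, 4.04, 3.60 and 3.06% in LTβR-Ig replicates 1 to 4, and 4.84, 4.25, 3.59 and 3.84% in control replicates 1 to 4. The means were 3.73 ± 0.519% with LTβR-Ig and 4.13 ± 0.546% in controls (SD, n = 4 each), a ratio of 0.904, and the groups overlapped. Small subunit genes took 1.54 ± 0.224% with LTβR-Ig and 1.73 ± 0.217% in controls, and large subunit genes 2.19 ± 0.296% with LTβR-Ig and 2.40 ± 0.329% in controls (SD, n = 4 each). Haemoglobin genes, which come from erythroid cells, took 1.46, 2.03, 3.38 and 2.75% in LTβR-Ig replicates 1 to 4 and 1.72, 1.47, 4.49 and 3.03% in control replicates 1 to 4. The 4 libraries with the highest ribosomal protein shares were the 4 with the lowest haemoglobin shares, but LTβR-Ig replicate 4, lowest in ribosomal protein share, was not the highest in haemoglobin. LTβR-Ig replicate 4 also had the lowest total count, and the 3 deepest libraries had the 3 highest ribosomal protein shares. The part of haemoglobin and of depth in the shares was not tested. With haemoglobin and mitochondrial counts left out of the total, the shares were 3.89 ± 0.525% with LTβR-Ig and 4.30 ± 0.523% in controls (SD, n = 4 each). In bulk samples, fewer cells of a type and less RNA per cell cannot be told apart.

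The subunits kept nearly the same balance. Counts of small subunit genes per count of large subunit genes were 0.697, 0.714, 0.715 and 0.681 in LTβR-Ig replicates 1 to 4, and 0.711, 0.715, 0.730 and 0.723 in control replicates 1 to 4. The means were 0.702 ± 0.0162 with LTβR-Ig and 0.720 ± 0.00859 in controls (SD, n = 4 each), and the groups overlapped. The 2 LTβR-Ig libraries with the lowest ratios lay below all controls. Without Rpl41 the ratio of LTβR-Ig replicate 4 was 0.706 and that of LTβR-Ig replicate 1 was 0.705, both still below the lowest control at 0.720.

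Levels per length ranked the abundant members. On RPKM (CPM per kilobase of annotated exon), Rps3a1 stood first with 1258 ± 131 with LTβR-Ig and 1392 ± 116 in controls (SD, n = 4 each). Rps3a1 encodes the small subunit protein eS1. Rpl32, a large subunit gene, followed with 1235 ± 185 RPKM with LTβR-Ig and 1342 ± 157 in controls, and then Rplp1, a gene of the acidic stalk where elongation factors dock, with 1030 ± 202 RPKM with LTβR-Ig and 1114 ± 158 in controls. Rps3a1 and Rpl32 differed by less than their SD in both groups, and Rpl32 and Rplp1 by more than theirs. The lowest tested member was Rpl39l, a paralog of Rpl39 known mainly from testis, at 29.7 ± 4.28 RPKM with LTβR-Ig and 32.0 ± 3.90 in controls. The order depends on the length used. With the length of the principal transcript alone Rpl32 ranked 1 and Rps3a1 ranked 5, and Rps19 ranked 2, where it was 43 by all annotated exons.

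In the small subunit no gene passed the test, and the groups overlapped for every gene. Rps27a encodes ubiquitin fused to a small subunit protein and had 437, 389, 382 and 319 CPM in LTβR-Ig replicates 1 to 4, and 534, 470, 389 and 423 CPM in control replicates 1 to 4. The lowest controls lay within the LTβR-Ig values, and the log2 fold change was -0.25 (SE 0.13, edgeR adjusted p = 0.904). Rps9, whose protein acts early in 40S assembly, had 875, 936, 787 and 734 CPM in LTβR-Ig replicates 1 to 4 and 1038, 986, 911 and 870 CPM in control replicates 1 to 4. Its 2 lowest libraries were LTβR-Ig and its 2 highest were controls, the groups overlapped, and the log2 fold change was -0.19 (SE 0.10). Rps23, at the decoding centre, averaged 676 ± 111 CPM with LTβR-Ig and 757 ± 109 CPM in controls (SD, n = 4 each).

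In the large subunit the smallest edgeR p belonged to Rpl22l1, the paralog of Rpl22, on chromosome 3 from 28805436 to 28807424. It had 131, 142, 128 and 107 CPM in LTβR-Ig replicates 1 to 4, and 181, 141, 139 and 157 CPM in control replicates 1 to 4. LTβR-Ig replicate 2 lay above the 2 lowest controls. The log2 fold change was -0.28 (SE 0.13, edgeR adjusted p = 0.808), with a 95% interval from -0.57 to 0.01. An antisense gene, Gm33051, overlaps its exons on the opposite strand with 1.18% as many counts. Rpl29 had 110, 112, 98.0 and 96.3 CPM in LTβR-Ig replicates 1 to 4, and 124, 112, 106 and 174 CPM in control replicates 1 to 4. Its difference lay largely in control replicate 4: the log2 fold change was -0.31 (SE 0.16) with all libraries and -0.14 without that one. Rpl14, whose start was printed above, averaged 858 ± 150 CPM with LTβR-Ig and 1045 ± 165 CPM in controls (SD, n = 4 each), a log2 fold change of -0.29.

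**Figure D3:**
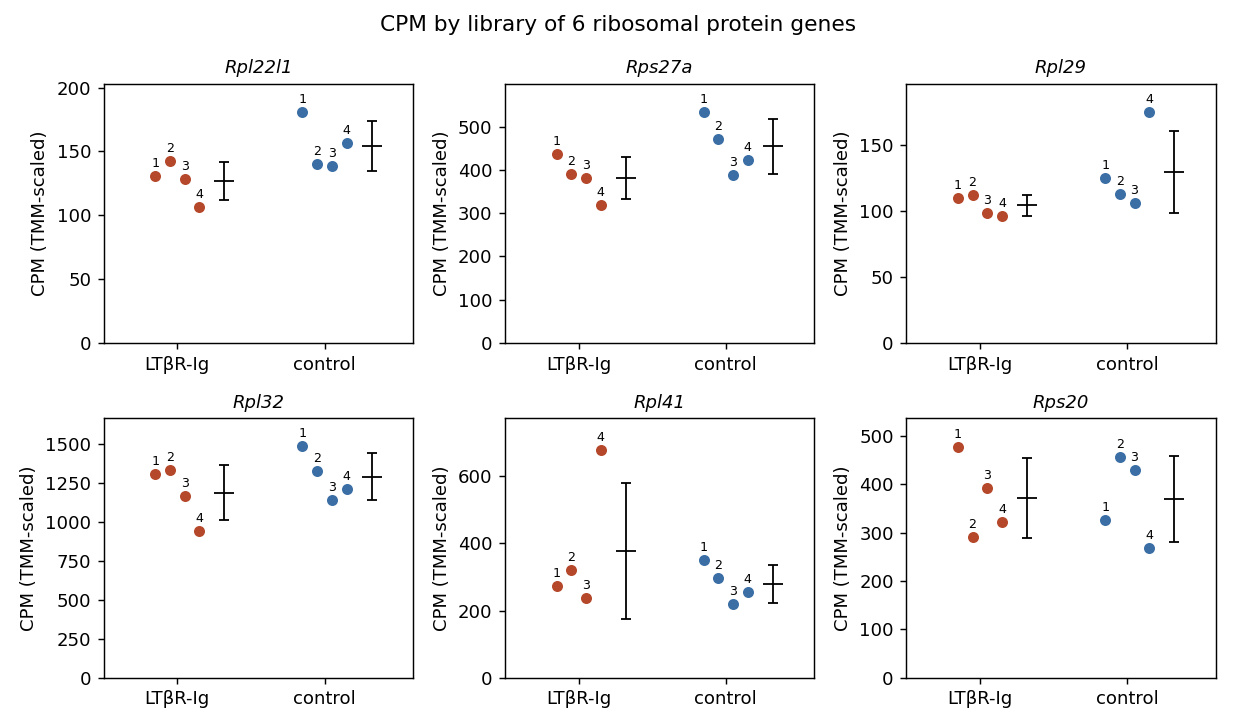
CPM of selected ribosomal protein genes in each library, LTβR-Ig left of control, with the mean and SD of each group. In Rpl22l1 the LTβR-Ig libraries span 107 to 142 CPM and the controls 139 to 181 CPM, while Rpl41 has a single high library, LTβR-Ig replicate 4 at 677 CPM.

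The stalk genes, Rpsa and Rpl36 did not pass the test. Rplp0, the stalk base, averaged 1377 ± 160 CPM with LTβR-Ig and 1521 ± 291 CPM in controls (SD, n = 4 each). Rplp2, the partner of Rplp1 in the stalk dimers, averaged 466 ± 100 CPM with LTβR-Ig and 509 ± 76.4 CPM in controls (SD, n = 4 each). Rpsa, a small subunit gene whose product is also known as the laminin receptor, averaged 620 ± 91.7 CPM with LTβR-Ig and 708 ± 87.7 CPM in controls (SD, n = 4 each). Rpl36, with rank 4 by RPKM, averaged 347 ± 65.4 CPM with LTβR-Ig and 364 ± 52.7 CPM in controls (SD, n = 4 each).

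Paralog pairs were compared because a paralog can replace its partner in some tissues. Rpl22, the partner of Rpl22l1, differed by -0.11 on the log2 scale (SE 0.16) and averaged 130 ± 22.6 CPM with LTβR-Ig and 140 ± 21.0 CPM in controls (SD, n = 4 each). Rps27l averaged 162 ± 30.6 CPM with LTβR-Ig and 167 ± 16.2 CPM in controls, and its partner Rps27 438 ± 41.7 CPM with LTβR-Ig and 481 ± 37.8 CPM in controls (SD, n = 4 each). Rpl7l1 averaged 161 ± 26.9 CPM with LTβR-Ig and 154 ± 20.8 CPM in controls, and its partner Rpl7 794 ± 105 CPM with LTβR-Ig and 870 ± 91.2 CPM in controls (SD, n = 4 each). Rpl39l averaged 24.7 ± 3.56 CPM with LTβR-Ig and 26.6 ± 3.24 CPM in controls, and Rpl39 154 ± 25.3 CPM with LTβR-Ig and 156 ± 20.8 CPM in controls (SD, n = 4 each). Rps4x, Rpl3 and Rpl10 had log2 fold changes of -0.13, -0.097 and -0.0048. The symbol Rps4l belongs to a transcribed processed pseudogene in the annotation and so fell outside the rule. It averaged 88.3 ± 12.4 CPM with LTβR-Ig and 74.5 ± 11.5 CPM in controls (SD, n = 4 each), a log2 fold change of 0.25 (SE 0.15). No paralog gene passed the test.

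A few members departed from the shared library pattern. After the library's median deviation was subtracted, the SD of a gene over the 8 libraries had a median of 0.0839 on the log2 scale, and 51 of the 81 genes were under 0.1. Rpl32 followed the pattern most closely, with an SD of 0.0210. Rpl41, which encodes the very short basic large subunit protein eL41, departed most, with an SD of 0.61. It had 274, 319, 239 and 677 CPM in LTβR-Ig replicates 1 to 4, and 350, 296, 219 and 255 CPM in control replicates 1 to 4. LTβR-Ig replicate 4, in which nearly all other members were lowest, was high for Rpl41 by 1.49 after that subtraction. The log2 fold change of Rpl41 was 0.43 (SE 0.32) with all libraries and -0.014 without LTβR-Ig replicate 4. Rps20 was next, with 477, 291, 393 and 322 CPM in LTβR-Ig replicates 1 to 4 and 325, 456, 429 and 268 CPM in control replicates 1 to 4, and its high libraries were in both groups. Its log2 fold change was 0.0048, and -0.016 when libraries were scaled by total counts. The other genes with a log2 fold change above 0 were Rpl23 at 0.11, Rpl26 at 0.087 and Rpl7l1 at 0.073, each smaller than its SE. Rps20, Rpl23, Rpl26 and Rpl41 were named after their values were seen.

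Libraries of a group were closer together for this family than for the median gene tested. The within-group SD had a median of 0.22 on the log2 scale over the 81 genes and 0.41 over all genes tested. The 95% interval of the fold change lay wholly within 1.5-fold of no change for 74 of the 81 (91.4%), against 20.6% of all genes. The median width of that interval to each side was 0.34 on the log2 scale, against 0.77 over all genes. The genes compared were not matched for expression level, and the part of level in these differences was not tested.

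A disease subset of the members, and then genes that act with ribosomal proteins, were described in the same way. Of the 81 tested members, 19 are mutated in human Diamond-Blackfan anaemia. Of these 19, 18 had a log2 fold change below 0 and the median was -0.13, close to the whole family (76 of 81 and -0.12). None passed an unadjusted p of 0.05. The 2 with the smallest p were Rps10, with 145 ± 13.0 CPM with LTβR-Ig and 175 ± 32.9 CPM in controls, and Rpl31, with 242 ± 25.8 CPM with LTβR-Ig and 275 ± 29.4 CPM in controls (SD, n = 4 each). Rpl18, also a gene of that disease in humans, averaged 215 ± 24.2 CPM with LTβR-Ig and 246 ± 33.6 CPM in controls (SD, n = 4 each). Its exons share up to 302 bases with Sphk2 on the opposite strand, which had 10.5% as many counts.

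Other translation genes with TOP mRNAs had 19 of 24 log2 fold changes below 0 and a median of -0.11. None was called over all genes, and 2 were lower at an unadjusted p under 0.05, a level that 2.93% of all genes passed in that direction. Eif4b, a cofactor of the eIF4A helicase, had 165, 145, 173 and 174 CPM in LTβR-Ig replicates 1 to 4, and 203, 224, 170 and 221 CPM in control replicates 1 to 4. Its log2 fold change was -0.31 (SE 0.12, edgeR adjusted p = 0.662). Eif4a2, an eIF4A helicase, averaged 162 ± 15.2 CPM with LTβR-Ig and 206 ± 32.4 CPM in controls (SD, n = 4 each). Its log2 fold change was -0.35 (edgeR adjusted p = 0.683). The groups overlapped for both genes. Among ribosomal genes outside the symbol rule, Rack1, a 40S scaffold protein, differed by -0.20 on the log2 scale (SE 0.16) and Fau, a ubiquitin-like fusion that yields eS30, -0.11 (SE 0.12). Rpl36al stood at 0.016.

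Ribosome biogenesis genes had no shared direction. Of 41 tested factors 20 were below 0 and 21 above, with a median of 0, and none passed an unadjusted p of 0.05. Nop2, a methyltransferase of large subunit ribosomal RNA, averaged 60.6 ± 6.21 CPM with LTβR-Ig and 44.8 ± 16.9 CPM in controls, and Lsg1, a GTPase of late 60S maturation, 34.4 ± 1.55 CPM with LTβR-Ig and 29.1 ± 4.95 CPM in controls (SD, n = 4 each). Of 15 genes of the RNA polymerase I machinery 10 were below 0, with a median of -0.027 and none past an unadjusted p of 0.05. Ubtf, which binds ribosomal DNA, stood at 0.31 on the log2 scale (SE 0.16), and Rrn3, the initiation factor that mTOR signalling acts on, 0.28 (SE 0.17).

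Among 22 regulators of ribosomal protein expression, 13 were below 0, the median was -0.058, and 1 gene passed an unadjusted p of 0.05, in the higher direction, as did 3.39% of all genes. Rps6kb1 encodes the S6 kinase that phosphorylates ribosomal protein S6 downstream of mTORC1. It had 99.96, 76.7, 80.2 and 93.7 CPM in LTβR-Ig replicates 1 to 4, and 65.7, 74.2, 71.0 and 56.9 CPM in control replicates 1 to 4. The groups did not overlap, as for 2.36% of all genes with LTβR-Ig higher. Its log2 fold change was 0.39 (SE 0.13, edgeR adjusted p = 0.622). Larp1, the TOP mRNA binding protein, averaged 90.1 ± 20.8 CPM with LTβR-Ig and 70.1 ± 8.78 CPM in controls (SD, n = 4 each), a log2 fold change of 0.36 (SE 0.17). Pdcd4, a target of S6 kinase named after its value was seen, had 365 CPM in LTβR-Ig replicate 1 and 30.0 to 60.0 CPM in the other LTβR-Ig libraries, against 41.3 to 48.7 CPM in controls.

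Free ribosomal proteins can bind Mdm2 and stabilise p53, so 10 genes of that route were followed. None was called over all genes. At an unadjusted edgeR p under 0.05, 2 were higher and 1 was lower, against 3.39% and 2.93% of all genes tested, and the same 3 had groups that did not overlap, against 2.36% of all genes higher and 2.53% lower. The median log2 fold change was 0.080, and -0.0021 over all genes, with 6 of the 10 above 0 and 4 below. Mdm2 itself stood at -0.027 (SE 0.46). Ccng1 stood at -0.16, Mdm4 at -0.11, Zmat3 at 0.049, Sesn1 at 0.11, Phlda3 at 0.16 and Sesn2 at 1.57 (SE 1.24). The groups overlapped for Mdm2 and for each of these genes. Cdkn1a, the p53 target that halts the cell cycle, had 52.4, 69.9, 41.1 and 96.7 CPM in LTβR-Ig replicates 1 to 4, and 33.4, 37.8, 24.1 and 28.0 CPM in control replicates 1 to 4. Its lowest LTβR-Ig library lay above all controls, with a log2 fold change of 1.08 (SE 0.27, edgeR adjusted p = 0.354). Bax, a pro-apoptotic p53 target, averaged 61.3 ± 13.3 CPM with LTβR-Ig and 43.1 ± 4.15 CPM in controls (SD, n = 4 each), without overlap, with a log2 fold change of 0.51 (edgeR adjusted p = 0.587). Trp53 itself, named after its value was seen, averaged 143 ± 12.2 CPM with LTβR-Ig and 176 ± 20.8 CPM in controls (SD, n = 4 each), also without overlap, with a log2 fold change of -0.29 (edgeR adjusted p = 0.708). Cdkn1a passed an adjusted threshold in DESeq2, with an adjusted p of 0.0173. The sums of the Schwann cell markers did not overlap either, and their part in these differences was not tested.

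**Figure D4:**
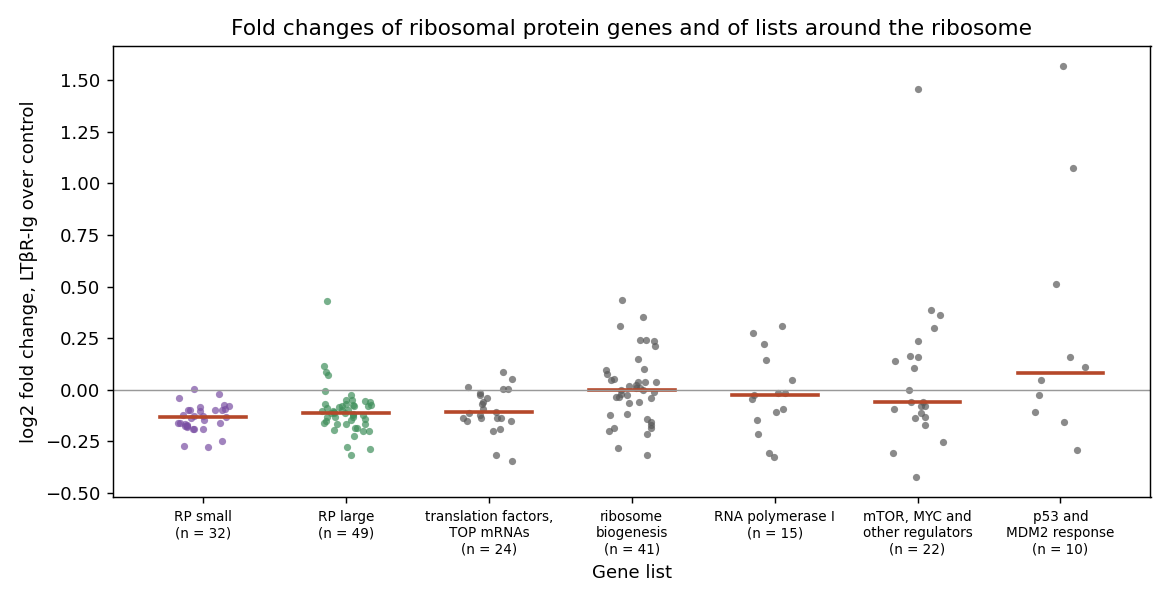
Log2 fold change (LTβR-Ig over control) of every tested gene in the ribosomal protein subunits and the related gene lists, with the median of each list. Ribosomal protein and TOP genes lie mostly a little below 0 (medians -0.13, -0.11 and -0.11), ribosome biogenesis genes lie around 0, and Cdkn1a stands at 1.08 in the p53 list. The 2 points above it, Sesn2 at 1.57 and Pdcd4 at 1.46, belong to genes whose groups overlapped.

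Shared reads limit single members. Exons of 24 members overlap another gene, snoRNAs left out, 19 of them on the opposite strand, and the sources used here do not say whether counting used strand. For 8 members the overlapping gene had over 5% of the member's counts. The highest share was that of Rpl5, where Fam69a on the opposite strand had 60.9% as many counts. The 292 annotated ribosomal protein pseudogenes had 0.471 to 0.513% as many counts as the members in LTβR-Ig libraries and 0.425 to 0.495% in control libraries.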

How the data were processed

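Bulk polyA RNA-seq libraries of sorted LEPR+ marrow cells (paired reads of 76 bp), 4 per group, were grouped by their titles. The authors deposited unnormalized whole-number read counts for each gene. HISAT2, HTSeq and mm10 are named in the submitters' processing notes. Tool versions, annotation release and strandedness of counting were not given in the sources used here. Symbols, lengths and overlaps were taken from GENCODE M21 (GRCm38, that is mm10), which matched 52489 of 52636 gene IDs. Replicate counts of every pair within a group differed by a chi-square per degree of freedom of 140 to 265, so all 8 were kept as separate libraries.

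All genes were fitted together with edgeR 4.0.16 (R 4.3.3): TMM scaling, filterByExpr (minimum count 10, minimum total 15), robust quasi-likelihood F test of LTβR-Ig over control with no covariate, and Benjamini-Hochberg adjustment over 16045 genes, threshold 0.05. SE was computed as the absolute log2 fold change over the root of F. Spreads on the log2 scale used CPM with 0.5 added. RPKM values are TMM-scaled CPM per kilobase of merged exons. Alternatives were other scalings, DESeq2 1.42.0, limma-voom (limma 3.58.1) with quality weights, no filter, a strict filter (at least 10 counts in 4 libraries and a mean of 5 CPM), a replicate block, and each library left out in turn.

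The members, the gene lists and the tests were chosen with earlier results of these data known. Named were the 3 genes per subunit with the smallest p, the 3 with the highest RPKM, the paralog pairs, Rps9, Rpl18, the stalk genes and Rpsa, and the 2 genes with the smallest p of each other list. Some genes that the rule took are not reported here. Intervals cover the spread between libraries, and floors of 3 counts cover counting error only.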

Additional observations from a re-analysis of the deposited data

Results flagged for a closer look

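Of 100 sets of 4 values examined (named genes and summary measures in each group), 2 held a library far from the other 3, and about 1 in 20 would by chance. Control replicate 1 had 537.35 CPM of Rps27, while the other controls had 455.42 to 466.93 CPM. That library also held the highest value of 65 of the 81 tested ribosomal protein genes. LTβR-Ig replicate 3 had 121.1 CPM of Rpl7l1, while the other LTβR-Ig libraries had 174.33 to 176.07 CPM. Rpl41 was not flagged by the rule used, although LTβR-Ig replicate 4 had 677 CPM and the other LTβR-Ig libraries 239 to 319 CPM.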

How the results depend on the processing

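No ribosomal protein gene was called over all genes under any alternative. The median log2 fold change of the members stayed below 0 in each, with -0.18 to -0.028 when single libraries were left out, -0.21 to -0.048 for the small subunit and -0.17 to -0.016 for the large. Members below 0 numbered 53 to 79, the ratio of their share of counts was 0.864 to 0.959, and the ratio of small to large subunit counts between groups was 0.969 to 0.985. Members lower at an unadjusted p under 0.05 numbered 0 in the main test, 1 with total counts and 1 with total counts without haemoglobin and mitochondrial genes, 2 with limma-voom, 3 with the replicate block, and 0 to 5 when libraries were left out (5 without LTβR-Ig replicate 2 and 5 without control replicate 3). Over all genes 6 were called in the main test, 338 by DESeq2, 17 by limma-voom, 22 with the strict filter, 1 with the replicate block, and 2 to 9 without single libraries (2 without control replicate 3). DESeq2 called Cdkn1a (log2 fold change 1.07) and the LEPR+ stroma marker Kitl (-0.58) as well.

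Some directions turned. They were those of Rpl10 with the replicate block (0.0017), and of Rps20 with total counts (-0.016) and without haemoglobin and mitochondrial genes (-0.018). When libraries were left out, Rplp1 ran from -0.20 to 0.0032, Rpl36 from -0.17 to 0.028, Rps27l from -0.15 to 0.066, Rpl39 from -0.084 to 0.084, Rpl10 from -0.054 to 0.081, Rpl41 from -0.014 to 0.61, Rps20 from -0.14 to 0.12, Rpl23 from -0.011 to 0.27 and Rpl26 from -0.027 to 0.18. The cause was not tested. Over all genes tested, the deviations of same-numbered libraries had correlations of 0.096, 0.053, 0.076 and -0.0010. Libraries of different numbers were not compared in this way, so these values cannot tell whether the libraries were paired. In both groups, replicates 3 and 4 had higher haemoglobin shares and lower median deviations of the members than replicates 1 and 2. The main test used no pairing. The design text speaks of pairs without saying what they share. No scaling moved the median of all genes by over 0.1.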
